A study of Mus musculus with 419 samples.

Results

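Myogenic factors and denervation genes, 10 in all, were followed through the limb muscles and tendons of energy-deficient and energy-sufficient mice: Myod1, Myog, Myf5, Myf6, Pax7, Chrna1, Chrng, Chrnd, Gadd45a and Ncam1. They were chosen by symbol, and all 10 were found among the 55487 genes of the deposited count table. Their levels were read in 191 libraries of limb muscles and tendons, out of 419 libraries in the series.

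Myod1, Myog, Myf5 and Myf6 encode the myogenic regulatory factors, basic helix-loop-helix proteins that bind E-boxes in DNA and switch on muscle genes. Pax7 marks the satellite cells, the resident stem cells of muscle, while Chrna1, Chrnd and Chrng encode subunits of the acetylcholine receptor through which the motor nerve excites the fibre. When a muscle loses its nerve, Myog, the receptor subunits, Ncam1 and Gadd45a are known to rise in the fibre, including away from the synapse where the receptor is normally confined.

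The series holds bulk RNA sequencing of 19 tissues from CBA/CaJ mice that were either energy-deficient (Deficient) or energy-sufficient (Control), in both sexes, collected at zeitgeber time ZT17 or ZT05, in hours after lights on. The labels give neither the age of the mice nor how energy deficiency was produced, and no other allele or agent is named for either treatment. The limb tissues are 5 muscles, namely the extensor digitorum longus (EDL), tibialis anterior (TA), soleus, gastrocnemius and quadriceps, and 3 tendons, those of the EDL, TA and gastrocnemius. Each tissue had 3 libraries in each group of sex, treatment and time, except that the TA tendon had 2 in Control males at ZT05. The animal numbers in the labels name 12 females that gave every limb tissue, 12 males numbered below 70 and 12 males numbered above 70, so tissues share mice. In the EDL, TA, soleus, EDL tendon and TA tendon all females were numbered below 70 and all males above it, so sex and number range cannot be told apart there.

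The 191 libraries held between 8011086 and 42624271 counts, with a median of 17887538. In 25 of them over 30% of the counts fell on mitochondrial and rRNA-like genes, and the highest share was 87.9%. These were 23 male libraries of the gastrocnemius (6), quadriceps (9) and gastrocnemius tendon (8), all from males numbered below 70, and 1 female library each of the TA and gastrocnemius. Calls of the 10 members in these 4 tissues were therefore made again without them, or in females alone where a male group would have been emptied. Changes of a call are given beside the value, and genes other than the members were not called again. In the TA all member calls printed below were kept, except for 1 of Myog and 1 of Chrna1. The gastrocnemius tendon kept 1 male library in each of its 4 male groups, and each of these is assumed to vary like the other groups. One soleus library stood apart from the other 23: the replicate 3 of Deficient females at ZT05 held 34338 CPM (counts per 1000000 counts of the library, scaled by TMM) of Myh4, a fast myosin, against 22.1 to 814 CPM in the others, and 4793 CPM of Myh7, the slow myosin, against 13704 to 30774 CPM. Muscle fibre RNA was abundant in the tendon libraries, where 10 fibre markers such as Acta1 and Ckm summed to a median of 45317 CPM in the Deficient EDL tendon and 57591 CPM in the Control EDL tendon, against 59133 CPM in the Deficient EDL and 63553 CPM in the Control EDL. Tendon values of fibre genes were thus measured in mixed tissue. The 10 tendon cell markers summed to a median of 6662 CPM in the Deficient and 9296 CPM in the Control EDL tendon, but to 329 and 581 CPM in the EDL muscle of Deficient and Control mice.

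In the GRCm38 build (GENCODE M21 annotation) Myod1 (ENSMUSG00000009471) lies at chr7:46376474-46379099 on the plus strand and Myog (ENSMUSG00000026459) at chr1:134289989-134292548 on the plus strand. Myf5 (ENSMUSG00000000435, chr10:107482908-107486134) and Myf6 (ENSMUSG00000035923, chr10:107492853-107494737) are neighbours on the minus strand. Pax7 (ENSMUSG00000028736) lies at chr4:139737062-139833528, minus strand, Gadd45a (ENSMUSG00000036390) at chr6:67035096-67037457, minus strand, and Ncam1 (ENSMUSG00000039542) at chr9:49502136-49798925, minus strand. Chrnd (ENSMUSG00000026251, chr1:87190607-87200070) and Chrng (ENSMUSG00000026253, chr1:87204657-87212694) are also neighbours, on the plus strand, and Chrna1 (ENSMUSG00000027107) lies at chr2:73563215-73580338, minus strand. Every one is a protein-coding gene, and the counts cover the gene as a whole.

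Promoter sequence from RefSeq (GRCm38.p6, 250 bases before to 50 after the start) was at hand for 6 of the 10 genes, and not for Myod1, Myf6, Chrnd and Ncam1. The promoters of Myog, Chrna1, Chrng and Gadd45a are shown, those of the 6 in which an E-box was found. They are printed in the direction of transcription and with every E-box of the form CANNTG in capitals.
Myog (chr1:134289754-134290053, plus strand): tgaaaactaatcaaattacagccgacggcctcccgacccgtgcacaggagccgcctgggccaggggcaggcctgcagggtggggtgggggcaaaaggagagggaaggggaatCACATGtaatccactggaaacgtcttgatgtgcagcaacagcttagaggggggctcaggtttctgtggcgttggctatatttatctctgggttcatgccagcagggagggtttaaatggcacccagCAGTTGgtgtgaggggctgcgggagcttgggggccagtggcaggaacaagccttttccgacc
Chrna1 (chr2:73580289-73580588, minus strand): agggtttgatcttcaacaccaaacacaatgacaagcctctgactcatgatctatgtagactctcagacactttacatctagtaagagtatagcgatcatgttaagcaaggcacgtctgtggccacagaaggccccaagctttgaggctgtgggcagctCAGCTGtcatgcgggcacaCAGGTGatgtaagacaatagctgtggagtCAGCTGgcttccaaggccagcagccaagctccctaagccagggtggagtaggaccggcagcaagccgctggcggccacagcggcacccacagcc
Chrng (chr1:87205561-87205860, plus strand): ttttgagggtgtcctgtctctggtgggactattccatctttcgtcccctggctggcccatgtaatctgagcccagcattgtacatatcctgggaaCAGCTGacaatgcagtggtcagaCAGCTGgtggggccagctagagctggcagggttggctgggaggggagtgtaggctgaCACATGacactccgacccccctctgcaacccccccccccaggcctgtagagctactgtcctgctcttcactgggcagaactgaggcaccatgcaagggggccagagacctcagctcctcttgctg
Gadd45a (chr6:67037358-67037657, minus strand): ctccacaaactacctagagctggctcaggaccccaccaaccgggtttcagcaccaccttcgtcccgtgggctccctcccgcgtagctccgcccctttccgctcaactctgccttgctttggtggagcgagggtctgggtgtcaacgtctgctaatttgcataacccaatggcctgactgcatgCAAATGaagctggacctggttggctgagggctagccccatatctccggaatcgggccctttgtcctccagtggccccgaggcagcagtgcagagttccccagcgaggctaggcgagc
CANNTG reads the same on both strands, and the motif CAGCTG, the motif CACGTG and the motif CAGGTG, searched on both strands, are special cases of it. The Chrna1 window holds 3 E-boxes, 2 of them CAGCTG and 1 CAGGTG, beginning 92, 73 and 44 bases before the start. The Chrng window also holds 3, with 2 CAGCTG that begin 155 and 132 bases and 1 CACATG that begins 75 bases before the RefSeq start, which lies inside the annotated gene. Myog has CACATG and CAGTTG, beginning 138 and 12 bases before the start, and Gadd45a has a single CAAATG that begins 67 bases before it. None was found in the windows of Pax7 (chr4:139832919-139833218) and Myf5 (chr10:107486085-107486384). Among all 32851 promoters of the same length, 72.3% hold a CANNTG, 16.3% a CAGCTG, 20.2% a CAGGTG and 7.15% a CACGTG. A match describes the letters of the window and is no measurement of binding.

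Per kilobase of exon, Myf6 had the highest median of the 10 genes in every limb muscle, and Myod1, Myog, Chrna1 and Ncam1 changed places between muscles. These levels were scaled within each tissue and not between tissues. The gastrocnemius and quadriceps medians include the male libraries rich in mitochondrial counts. Differences between muscles are therefore read from the tests within mice below. In Control mice the median of Myf6 lay between 39.9 and 58.3 CPM per kilobase over the 8 limb tissues. Myf6 encodes MRF4, the regulatory factor that prevails in mature fibres. Myod1, the determination factor, had medians of 9.38 CPM per kilobase in the EDL, 11.8 in the TA, 3.56 in the soleus, 5.45 in the gastrocnemius and 4.92 in the quadriceps of Control mice. Within females, however, Myod1 in the gastrocnemius and quadriceps did not differ from the EDL past the test, as given below. Myog, the differentiation factor myogenin, ran the other way, with 14.1 CPM per kilobase in the Control soleus and 2.45 to 4.30 in the other 4 muscles. Pax7 and Myf5, genes of satellite cells, were low, with medians of 0.477 to 1.14 and 0.475 to 1.02 CPM per kilobase over the 5 Control muscles. In bulk tissue such as this, fewer cells of a type and less RNA per cell cannot be told apart.

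**Figure D1:**
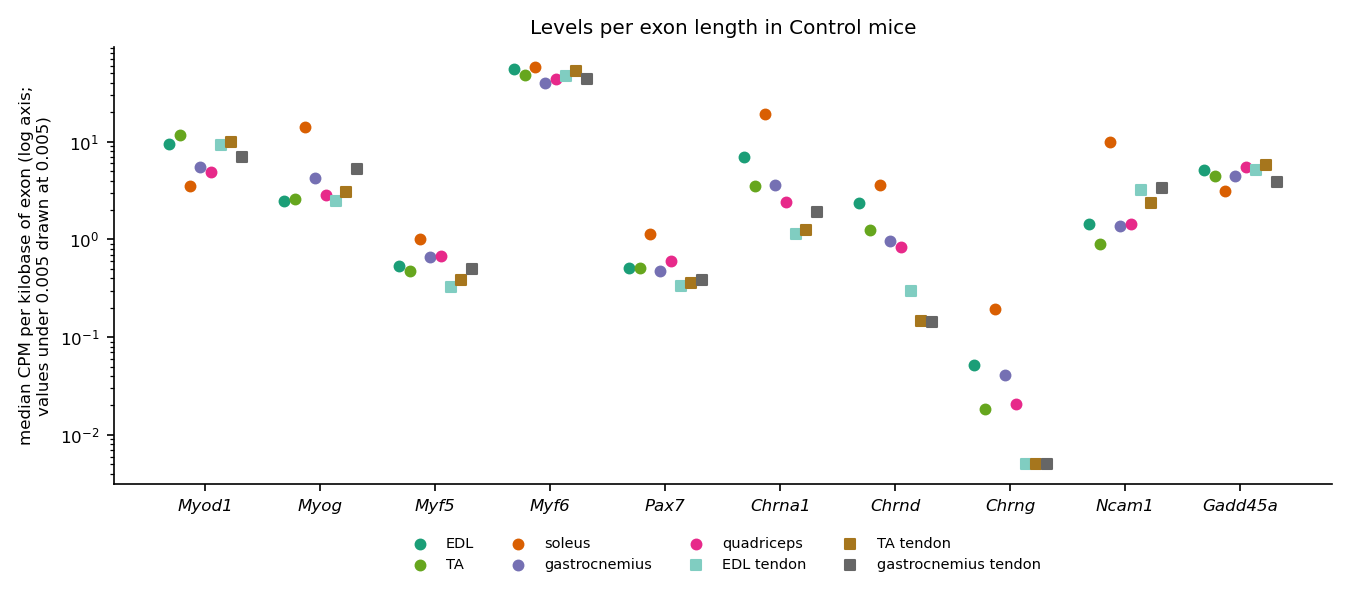
Median CPM per kilobase of exon (log axis) of each of the 10 genes in Control libraries, with circles for the 5 limb muscles and squares for the 3 tendons, and values under 0.005 drawn at 0.005. Levels are scaled within each tissue and not between tissues. Myf6 sits at the top in every limb muscle, and Chrng, the fetal receptor subunit, is lowest, with 0.196 CPM per kilobase in the soleus.

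The levels of the acetylcholine receptor genes are given in the same way and have the same limits. Chrna1, the alpha subunit that binds acetylcholine, had a median of 19.0 CPM per kilobase in the Control soleus, 6.94 in the EDL and 2.43 to 3.60 in the TA, gastrocnemius and quadriceps. Chrnd, the delta subunit, had 3.59 CPM per kilobase in the soleus, 2.37 in the EDL, 1.25 in the TA, 0.957 in the gastrocnemius and 0.838 in the quadriceps. Within females, the gastrocnemius did not differ from the EDL past the test for Chrna1, nor the soleus from the EDL for Chrnd, as given below. Chrng, the gamma subunit of the fetal receptor that is replaced by epsilon after innervation, was near the limit of detection. Its reads per library ran from 6 to 49 in the soleus, with a median of 19, from 1 to 13 in the EDL and from 0 to 14 in the TA. No Chrng read was counted in 5 gastrocnemius and 7 quadriceps libraries, which allows up to 0.22 CPM in the gastrocnemius and 0.374 CPM in the quadriceps (3 counts per library, counting error only). Only in the soleus did Chrng pass the filter on low counts, and it was tested for treatment and time there alone, while the other 9 genes passed in all 8 limb tissues.

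Within the 12 females, each of which gave all 5 muscles, 6 of the 9 genes that passed the filter on low counts in every muscle were higher and 2 lower in the soleus than in the mean of the other 4 muscles, and Myf6 did not pass the test. Chrng passed that filter through its soleus reads alone, so it is described by the reads given above and not tested between muscles. Of all genes tested, 30.5% were higher and 26.9% lower in this comparison, so differences of this kind were common. Differences are log2 fold changes with their SE, from edgeR's quasi-likelihood test with the mouse as a block and Benjamini-Hochberg adjustment over all genes, and n was 6 Control females. Ncam1, a cell adhesion molecule of embryonic, regenerating and denervated fibres, of satellite cells and of nerve, was higher in the soleus by 2.62 ± 0.11 (adjusted p = 3.59e-26). Myog was higher by 1.90 ± 0.12 (adjusted p = 2.44e-19), Chrna1 by 1.80 ± 0.09 (adjusted p = 3.61e-23) and Chrnd by 0.97 ± 0.11 (adjusted p = 2.15e-10). Both satellite cell genes were higher too, Pax7 by 0.83 ± 0.12 and Myf5 by 0.82 ± 0.11. Myod1 was lower in the soleus, with a log2 difference of -0.98 ± 0.17 (adjusted p = 1.55e-06), and so was Gadd45a, a growth arrest and DNA damage gene, at -0.81 ± 0.19 (adjusted p = 0.000223). This fit had no term for time, so the differences are taken over ZT17 and ZT05 together. Over both sexes, Control soleus Gadd45a differed by -1.67 (log2, ZT17 minus ZT05), and Myod1 by 0.93 in the soleus against 2.09 in the TA. Whether the soleus differences depend on the time was not tested. The soleus is the slow muscle of the 5, and its 9 slow fibre markers summed to a median of 65821 CPM, against 6777 CPM in the EDL and 3348 CPM in the TA; the part of fibre type in these differences was not tested.

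**Figure D2:**
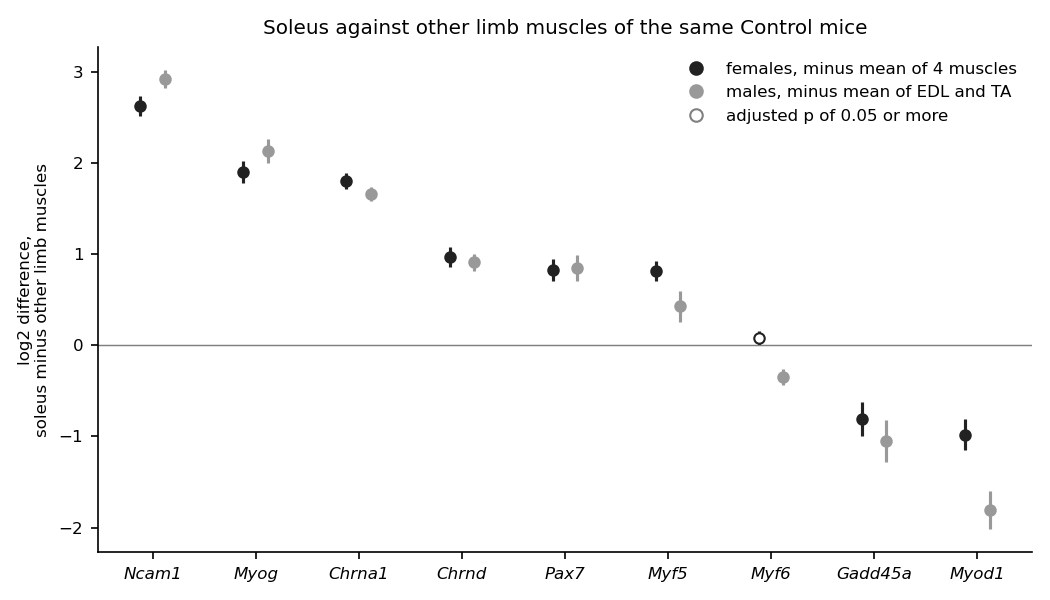
Log2 difference of the soleus from other limb muscles within Control mice, over both times together, one position per gene along the x axis, with bars for the SE. Black points are females (soleus minus the mean of 4 muscles), grey points are males numbered above 70 (soleus minus the mean of EDL and TA), and open points did not pass an adjusted p of 0.05. Chrng is not shown. Ncam1, Myog, Chrna1 and Chrnd lie above 0 in both sexes, and Myod1 and Gadd45a below it.

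Males numbered above 70, which gave the soleus, EDL and TA, showed the same directions for these genes against the mean of EDL and TA. Ncam1 was higher in their soleus by 2.92, Myog by 2.13, Chrna1 by 1.66 and Chrnd by 0.91, and Myod1 stood at -1.81 and Gadd45a at -1.05. Myf6 was lower in the male soleus, with a log2 difference of -0.35 (adjusted p = 0.00139), whereas in females it differed by 0.08 ± 0.08 (adjusted p = 0.439). Without the mouse whose soleus held fast myosin the female differences were 2.60 for Ncam1, 1.88 for Myog, 1.78 for Chrna1, -1.0 for Myod1 and -0.83 for Gadd45a. In Deficient females the soleus differences did not depart from those of Control females for any gene tested between muscles. Of these genes 0 passed the test, against 0.921% of all genes called higher and 0.322% lower. Myog came nearest, with a difference of -0.62 ± 0.18 between the treatments (adjusted p = 0.071).

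Taken muscle by muscle in Control females, over both times together, Myog was highest in the soleus, then in the gastrocnemius, and lowest in the EDL and TA. The gastrocnemius stood below the soleus by 1.14 on the log2 scale and above the EDL by 1.20 and the TA by 1.08, all past the test. Between the TA and EDL the difference of 0.13 ± 0.17 did not pass (adjusted p = 0.74), and the quadriceps stood above the EDL by 0.44 ± 0.17 (adjusted p = 0.0453). Myod1 was lower in the soleus than in each of the other 4 muscles, while the TA, gastrocnemius and quadriceps differed from the EDL by 0.09, 0.02 and -0.18, none past the test. Chrna1 was highest in the soleus, above the EDL by 1.18 ± 0.12, and lower than the EDL in the TA (-0.92 ± 0.12) and quadriceps (-1.23 ± 0.13), while the gastrocnemius did not differ from the EDL past the test (-0.30 ± 0.12, adjusted p = 0.0599). Chrnd in the EDL did not differ from the soleus beyond its error (soleus minus EDL 0.22 ± 0.14, adjusted p = 0.196), and the TA, gastrocnemius and quadriceps were lower than the EDL, at -0.76, -1.19 and -1.04. Ncam1 was higher in the soleus than in the EDL by 2.32 ± 0.16, and lower in the TA than in the EDL, at -0.88 ± 0.16.

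Each tendon carried less Chrnd and more Ncam1 than its own muscle. Over the 3 tendons and 9 tested genes, 14 of 27 differences within Control females passed the test, with backgrounds of 30.7% higher and 23.9% lower for the EDL tendon, 19.3% and 10.5% for the TA tendon, and 5.37% and 2.95% for the gastrocnemius tendon. Ncam1 was higher in each tendon than in its muscle, by 1.17 ± 0.18, 1.12 ± 0.18 and 1.08 ± 0.18 in the EDL, TA and gastrocnemius pairs. Chrnd was lower, at -2.62 ± 0.67, -3.28 ± 0.71 and -2.71 ± 0.73, and Chrna1 at -1.75 ± 0.43 and -1.74 ± 0.43 in the EDL and TA pairs, while the gastrocnemius pair did not pass (-1.21 ± 0.42, adjusted p = 0.0624). Chrnd had no read in 6 EDL tendon and 7 TA tendon libraries. Pax7 was lower in the EDL and TA tendons, at -1.55 ± 0.24 and -0.80 ± 0.23, and Myf5 (-1.32), Myog (-0.70) and Myf6 (-0.60) in the EDL tendon. Gadd45a was lower in the gastrocnemius tendon, at -0.56 ± 0.16 (adjusted p = 0.0243). Myod1 did not pass the test in any pair, with differences of -0.46 ± 0.23, -0.12 ± 0.23 and -0.15 ± 0.23. Schwann cells also express Ncam1, and 12 of their markers, none at 0, summed to between 149 and 1731 CPM in the EDL tendon against 103 to 204 CPM in the EDL, and to between 47.7 and 4887 CPM in the gastrocnemius tendon against 72.4 to 1037 CPM in the gastrocnemius. Their part in the Ncam1 difference was not tested.

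Myod1, Myog and Myf6 differed by collection time in the muscles of Control mice, while Myf5 passed the test in 0 of the 8 limb tissues. At ZT17 Control mice had higher Myod1 than at ZT05 in all 5 limb muscles and in the gastrocnemius tendon, by log2 differences of 0.93 to 2.09. Myog was higher at ZT17 in 4 of the muscles and Myf6 in 3, while Gadd45a and Pax7 were lower at ZT17 in the soleus. In all, 15 of 73 gene and tissue pairs passed the test in Control mice (13 higher, 2 lower), against 2.95% higher and 2.75% lower of all pairs of a gene and a limb tissue. In Deficient mice 4 of 73 passed (3 higher, 1 lower), against 0.953% higher and 1.05% lower of all pairs. Whether the treatments differed was tested directly as the response, Deficient minus Control, at ZT17 minus the response at ZT05: 5 of 73 pairs passed, all negative, against 0.642% of all pairs called negative. These were Myod1 in the EDL, TA and gastrocnemius and Myog in the EDL and TA. The time comparison in Control mice and the responses at each time share the Control libraries, and are not independent of each other.

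In the TA, Myod1 had 7.25, 13.6 and 20.3 CPM in Deficient mice at ZT17 (lowest, median and highest of 6 libraries) and 7.09, 14.3 and 42.1 CPM in Deficient mice at ZT05. In Control mice it had 30.8, 33.1 and 39.6 CPM at ZT17, against 5.83, 7.06 and 13 CPM at ZT05. The 2 times overlapped in Deficient mice and stood apart in Control mice, as they did, higher, for 2.22% of the genes tested in the TA. In the same muscle every Deficient library lay below every Control library at ZT17, as for 1.62% of genes. Myod1 was higher at ZT17 by 2.09 ± 0.22 in Control mice (edgeR's quasi-likelihood test, adjusted p = 2.77e-06). In Deficient relative to Control mice it was higher at ZT05, by 1.03 ± 0.23 (edgeR, adjusted p = 0.00232), and lower at ZT17, at -1.31 ± 0.22 (edgeR, adjusted p = 0.000357). The response differed between the times by -2.34 ± 0.31 (edgeR, adjusted p = 0.000565). Without the 1 TA library rich in mitochondrial counts that last value was -2.22 (adjusted p = 0.000979).

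The EDL gave the same picture for Myod1. Deficient mice had 6.63, 16.6 and 23.5 CPM at ZT17 and 6.71, 19.7 and 31.0 CPM at ZT05. Control mice had 21.5, 28.7 and 45.4 CPM at ZT17, against 7.19, 10.9 and 13.4 CPM at ZT05. Again the times overlapped in Deficient mice and did not in Control mice (1.9% of genes stood apart in this direction in the EDL). The Control difference was 1.53 ± 0.23 (edgeR, adjusted p = 8.19e-05), and the Deficient one was -0.32 ± 0.22 (edgeR, adjusted p = 0.444). Myod1 was higher in Deficient than in Control EDL at ZT05, by 0.88 ± 0.23 (edgeR, adjusted p = 0.00844), and lower at ZT17, at -0.97 ± 0.22 (edgeR, adjusted p = 0.00306). Averaged over the times the response of Myod1 was -0.13 in females and 0.04 in males, neither past the test. The difference between the responses, -1.86 ± 0.32 (edgeR, adjusted p = 0.00235), was -1.64 ± 0.45 in females (edgeR, adjusted p = 0.101) and -2.07 ± 0.45 in males (edgeR, adjusted p = 0.0474).

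**Figure D3:**
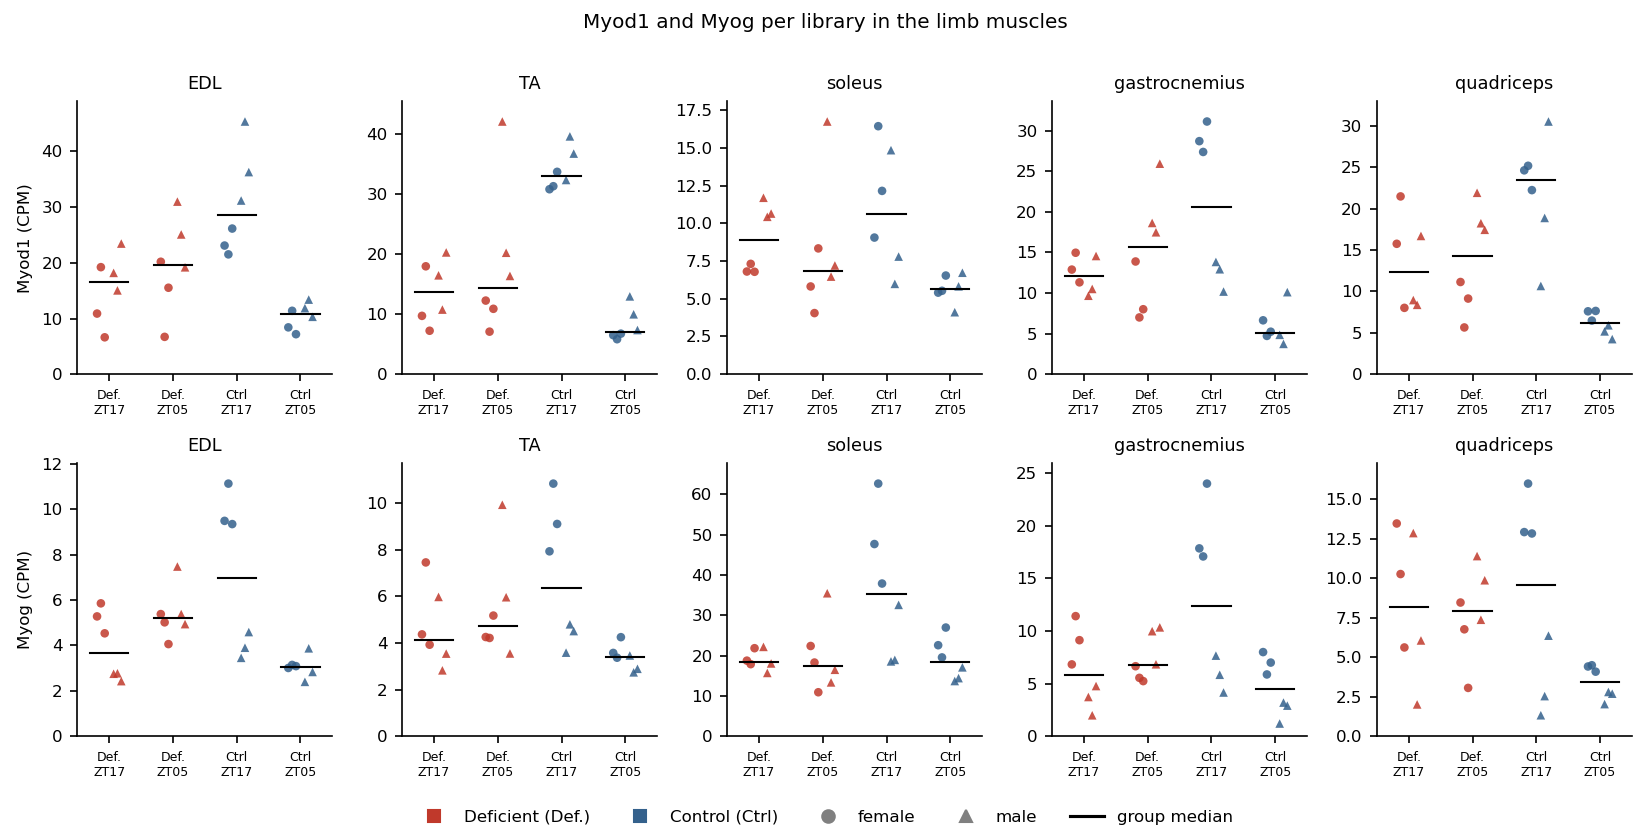
CPM of Myod1 and Myog in every library of the limb muscles by treatment and time, Deficient ZT17, Deficient ZT05, Control ZT17 and Control ZT05 from left to right, with circles for females, triangles for males and a line at the median of each group. In the TA the 6 Deficient ZT17 libraries of Myod1 lie between 7.25 and 20.3 CPM, the 6 Control ZT17 libraries between 30.8 and 39.6 CPM and the 6 Control ZT05 libraries between 5.83 and 13 CPM.

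In the gastrocnemius, quadriceps and soleus Myod1 was also higher at ZT17 in Control mice. In the gastrocnemius Myod1 had medians of 12.1 and 15.7 CPM in Deficient mice at ZT17 and ZT05, against 20.6 and 5.04 CPM in Control mice at the same times. The Control times did not overlap there (10.2 to 31.1 CPM at ZT17 and 3.73 to 10.1 CPM at ZT05, a separation seen for 0.649% of genes), and the difference was 1.65 ± 0.23 (edgeR, adjusted p = 0.0012). Its response was 1.23 ± 0.22 at ZT05 (edgeR, adjusted p = 0.00683), and 0.93 ± 0.26 without the libraries rich in mitochondrial counts (edgeR, adjusted p = 0.379). The time difference of the response was -1.85 ± 0.31 (edgeR, adjusted p = 0.0385), a call that was lost without any of 19 of the 24 libraries. In females alone, which leaves out all male libraries rich in mitochondrial counts, the Control time difference in the gastrocnemius was 2.40 ± 0.25 (edgeR, adjusted p = 0.00138) and the time difference of the response was -1.94 ± 0.34 (edgeR, adjusted p = 0.257). The quadriceps had Myod1 medians of 12.3 and 14.3 CPM in Deficient mice at ZT17 and ZT05, and of 23.4 and 6.19 CPM in Control mice, whose times did not overlap (0.442% of genes). Its Control time difference was 1.85 ± 0.26 (edgeR, adjusted p = 0.000852), and 1.73 ± 0.30 in females alone (edgeR, adjusted p = 0.00666), and the response at ZT05 was 1.08 ± 0.26 (edgeR, adjusted p = 0.036) over both sexes and 0.23 ± 0.30 in females alone (edgeR, adjusted p = 0.691). The soleus was lower and flatter, with Control medians of 10.6 CPM at ZT17 and 5.68 CPM at ZT05 and a difference of 0.93 ± 0.24 (edgeR, adjusted p = 0.00988). None of the tests of the treatment passed for Myod1 in the soleus.

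In the tendons, whose libraries hold fibre RNA, Myod1 had the same sign of difference. The gastrocnemius tendon had medians of 12.6 and 19.4 CPM in Deficient mice at ZT17 and ZT05, against 28.5 and 7.16 CPM in Control mice, whose times did not overlap (0.33% of genes). Its Control difference was 1.84 ± 0.30 (edgeR, adjusted p = 0.0062), and 1.94 ± 0.28 without the 8 male libraries rich in mitochondrial counts (edgeR, adjusted p = 0.0167). The response of Myod1 in this tendon at ZT05 was 1.23 ± 0.29 (edgeR, adjusted p = 0.022), and 1.16 ± 0.27 without them (edgeR, adjusted p = 0.00703). In the TA tendon the Control times did not overlap either, with 18.6 to 52.8 CPM at ZT17 and 6.13 to 17.6 CPM at ZT05 (0.452% of genes), but the difference of 1.57 did not pass the test (edgeR, adjusted p = 0.106), and neither did the 1.14 of the EDL tendon (edgeR, adjusted p = 0.0631).

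Myog had time differences of opposite sign in Deficient and Control EDL. Deficient mice had 2.43, 3.66 and 5.86 CPM of Myog at ZT17 and 4.06, 5.20 and 7.47 CPM at ZT05. Control mice had 3.46, 6.97 and 11.1 CPM at ZT17, against 2.40, 3.05 and 3.87 CPM at ZT05. The 2 times overlapped within each treatment, and at ZT05 every Deficient library lay above every Control library, as for 2.09% of genes. Myog was lower at ZT17 than at ZT05 in Deficient mice, by a log2 difference of -0.52 ± 0.12 (edgeR, adjusted p = 0.0138), and higher in Control mice, by 1.05 ± 0.12 (edgeR, adjusted p = 7.6e-06). Its response was 0.82 ± 0.13 at ZT05 and -0.76 ± 0.12 at ZT17, and the difference between them of -1.58 ± 0.18 (edgeR, adjusted p = 6.21e-05) also passed in females (-1.59 ± 0.23) and in males (-1.57 ± 0.26).

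By sex, the Myog time difference passed in Control females and Deficient males. Control females had 9.49, 11.1 and 9.35 CPM in the EDL at ZT17 and 3.01, 3.14 and 3.09 CPM at ZT05, a difference of 1.70 ± 0.16 (edgeR, adjusted p = 2.53e-06). Deficient males had 2.75, 2.78 and 2.43 CPM at ZT17 and 7.47, 5.38 and 4.94 CPM at ZT05, a difference of -1.16 ± 0.19 (edgeR, adjusted p = 0.00518). Neither Deficient females nor Control males passed the test: Deficient females had 4.54 to 5.86 CPM at ZT17 and 4.06 to 5.38 CPM at ZT05, and Control males 3.46 to 4.59 and 2.40 to 3.87 CPM. Whether the sexes differed in their time difference was not tested. In females alone the Deficient difference was 0.12 and did not pass (adjusted p = 0.672).

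Outside the EDL, Myog was higher at ZT17 in the Control TA, soleus and gastrocnemius. In the TA it had medians of 4.15 and 4.71 CPM in Deficient mice at ZT17 and ZT05, against 6.36 and 3.41 CPM in Control mice, a Control difference of 0.91 ± 0.20 (edgeR, adjusted p = 0.00531). At ZT05 Myog was higher in the Deficient TA than in the Control TA, by 0.69 ± 0.21 (edgeR, adjusted p = 0.0172). The time difference of the response in the TA, -1.14 ± 0.29, passed the test (edgeR, adjusted p = 0.0399), was lost without any of 16 libraries, and stood at -1.06 (adjusted p = 0.0753) without the 1 library rich in mitochondrial counts. In the gastrocnemius the medians were 5.80 and 6.74 CPM in Deficient mice and 12.4 and 4.54 CPM in Control mice, with a Control difference of 1.43 ± 0.25 (edgeR, adjusted p = 0.00773) that was 1.50 ± 0.23 in females alone (edgeR, adjusted p = 0.00794). The quadriceps did not pass over both sexes (1.08, edgeR, adjusted p = 0.14) and passed in females alone (1.68 ± 0.33, edgeR, adjusted p = 0.0135).

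In the soleus, where Myog is highest, the response passed the test in females. Deficient females had 18.8, 17.9 and 21.8 CPM at ZT17 and 22.4, 18.3 and 10.9 CPM at ZT05. Control females had 47.6, 62.6 and 37.9 CPM at ZT17, against 22.6, 19.6 and 27.0 CPM at ZT05. At ZT17 all 3 Deficient libraries lay below all 3 Control libraries, as for 14.6% of the genes tested, and at ZT05 they overlapped. The female response averaged over the times was -0.88 ± 0.21 (edgeR, adjusted p = 0.0061), and -0.76 ± 0.21 without the fast-fibre library (edgeR, adjusted p = 0.0161). Males had 22.2, 15.7 and 18.1 CPM (Deficient) and 18.6, 18.9 and 32.6 CPM (Control) at ZT17, and their response of 0.11 did not pass, nor did the difference between the sexes. Over both sexes the response at ZT17 was -0.83 ± 0.21 (edgeR, adjusted p = 0.0117). Myog was also lower in the Deficient EDL tendon at ZT17, at -1.22 ± 0.23 (edgeR, adjusted p = 0.00921), and in the TA tendon of Deficient females, at -0.97 ± 0.30 (edgeR, adjusted p = 0.0497), a call lost without any of 16 of 23 libraries.

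**Figure D4:**
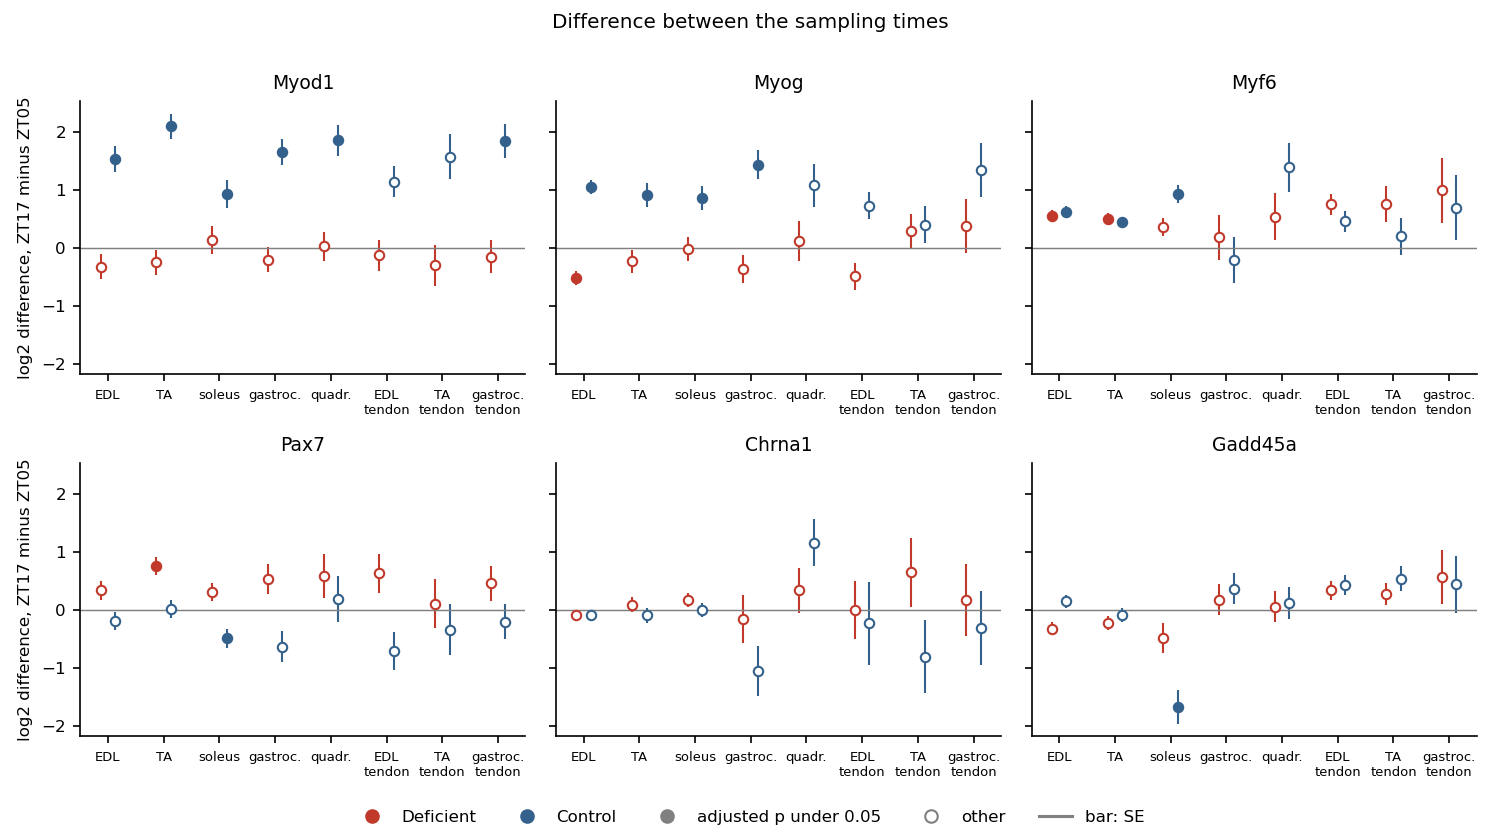
Log2 difference ZT17 minus ZT05 of Myod1, Myog, Myf6, Pax7, Chrna1 and Gadd45a in each of the 8 limb tissues, Deficient mice in red on the left of each pair and Control mice in blue on the right, with bars for the SE and filled points for an adjusted p under 0.05. Filled Control points of Myod1 run from 0.93 in the soleus to 2.09 in the TA, and no Deficient point of Myod1 is filled.

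Myf6 was higher at ZT17 than at ZT05 in the EDL and TA of both treatments when the sexes were averaged. In the EDL it had 50.0, 77.7 and 126 CPM in Deficient mice at ZT17 and 35.0, 52.2 and 81.7 CPM at ZT05, and in Control mice 77.4, 82.2 and 102 CPM at ZT17 against 46.1, 57.1 and 63.9 CPM at ZT05. The Control times did not overlap (1.9% of genes) and the Deficient times did. Both differences passed the test, at 0.55 ± 0.10 in Deficient mice (edgeR, adjusted p = 0.00257) and 0.62 ± 0.10 in Control mice (edgeR, adjusted p = 0.000302). In the TA they were 0.50 ± 0.10 and 0.44 ± 0.10, and in the soleus 0.36 ± 0.16 in Deficient mice (edgeR, adjusted p = 0.249) and 0.93 ± 0.16 in Control mice (edgeR, adjusted p = 0.000418).

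By sex, the Myf6 difference of Deficient mice passed in females and not in males. Deficient females had 126, 85.7 and 97.4 CPM in the EDL at ZT17 and 43.9, 35.0 and 43.2 CPM at ZT05, and fitted alone their difference was 1.35 ± 0.15 (edgeR, adjusted p = 0.000641). Deficient males had 63.9, 50.0 and 69.7 CPM at ZT17 and 81.7, 73.3 and 60.5 CPM at ZT05, and fitted alone their difference was -0.23 ± 0.13 (edgeR, adjusted p = 0.557). In the TA Deficient females had a difference of 1.02 ± 0.15 (edgeR, adjusted p = 0.000451), and Deficient males fitted alone of -0.01 ± 0.13 (edgeR, adjusted p = 0.963). The female difference also passed in the soleus (0.83 ± 0.23) and the EDL tendon (1.57 ± 0.25), and the contrast between the sexes was not tested. With all libraries Myf6 passed no test of the response, in either sex, in any limb tissue. Without the libraries rich in mitochondrial counts its response in the gastrocnemius tendon of males, with 1 library in each group, was 1.35 ± 0.22 (edgeR, adjusted p = 0.000539).

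Pax7 and Myf5 each passed the test of the response, by sex, in 1 of the 8 limb tissues. Pax7 was lower in the TA of Deficient females, with 2.63, 1.97 and 2.77 CPM at ZT17 and 2.19, 1.42 and 1.39 CPM at ZT05, against 2.39, 2.54 and 3.02 CPM at ZT17 and 3.32, 3.49 and 3.09 CPM at ZT05 in Control females. The ZT05 libraries stood apart, as they did in this direction for 18.8% of the genes tested, and the ZT17 libraries overlapped. The female response was -0.56 ± 0.15 (edgeR, adjusted p = 0.00814), and over both sexes the response at ZT05 was -0.70 ± 0.16 (edgeR, adjusted p = 0.00312) in the TA and -0.48 ± 0.16 (edgeR, adjusted p = 0.0357) in the EDL. In Deficient TA Pax7 was higher at ZT17 than at ZT05 by 0.76 ± 0.16 (edgeR, adjusted p = 0.00649), while in the Control soleus it was lower at ZT17, at -0.49 ± 0.17 (edgeR, adjusted p = 0.0417). Myf5, which marks satellite cells poised for myogenesis, was higher in the soleus of Deficient males, with 1.77 to 2.68 CPM against 1.28 to 2.07 CPM in Control males, a response of 0.55 ± 0.16 (edgeR, adjusted p = 0.0302) that was lost without any of 7 libraries. Summed over 18 satellite cell markers, the levels overlapped between treatments, with 1727 to 4106 CPM in the Deficient and 1669 to 3157 CPM in the Control TA and 3149.9 to 9029.6 CPM in the Deficient and 3075 to 5933 CPM in the Control soleus. These markers include Des, which is also among the fibre markers. The sum is therefore no measure of satellite cells alone, and Pax7 gave only a few CPM of it.

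Of the receptor genes, Chrna1 had a small response. Chrna1 in the EDL had 29.2, 34.5 and 41.6 CPM in Deficient mice at ZT17 and 30.2, 37.9 and 43.4 CPM at ZT05, against 24.4, 29.8 and 36.5 CPM at ZT17 and 26.1, 31.5 and 35.2 CPM at ZT05 in Control mice. The ranges overlapped over both sexes, and in males every Deficient library lay above every Control library, as for 2.03% of the genes tested. Its response was 0.23 ± 0.05 in females (edgeR, adjusted p = 0.00323) and 0.27 ± 0.06 in males (edgeR, adjusted p = 0.00364), and its time difference was -0.09 in Deficient and -0.08 in Control mice, neither past the test. In the TA Chrna1 had medians of 19.5 CPM in Deficient and 15.3 CPM in Control mice, and the response passed at ZT17 alone (0.39 ± 0.13, edgeR, adjusted p = 0.0403), a call that was lost without the 1 library rich in mitochondrial counts (0.38 ± 0.14, edgeR, adjusted p = 0.0801). In the soleus its female response was 0.27 (edgeR, adjusted p = 0.12), and 0.36 ± 0.12 without the fast-fibre library (edgeR, adjusted p = 0.0389).

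Chrnd and Ncam1 passed no test of treatment or time in any of the 8 limb tissues. Chrnd had medians of 7.17 CPM in the Deficient and 7.78 CPM in the Control EDL, of 12.1 and 11.8 CPM in the soleus, and of 4.58 and 4.11 CPM in the TA. The Ncam1 medians were 13.2 CPM in the Deficient and 12.4 CPM in the Control EDL and 99.8 and 86.5 CPM in the soleus, where its response was 0.04 ± 0.20 in females and 0.27 ± 0.20 in males. The lowest soleus value of Ncam1, 32.5 CPM, was that of the fast-fibre library, and the other 23 lay between 62.5 and 125 CPM. Chrng in the soleus ran from 0.23 to 2.03 CPM in Deficient and from 0.423 to 2.29 CPM in Control mice, with a response of -0.45 ± 0.35 in females and 0.39 ± 0.37 in males, neither past the test.

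Gadd45a was the member that rose with energy deficiency in the most tissues. The response here is Deficient minus Control averaged over the times within a sex. It passed the test in females in the EDL, TA, soleus, EDL tendon and TA tendon, and in males in the EDL, TA, soleus and gastrocnemius tendon. All member calls of the response together numbered 9 of 73 pairs in females (6 higher, 3 lower), against 6.29% higher and 6.31% lower of all pairs. In males they numbered 6 of 73, all higher, against 2.71% higher and 2.88% lower of all pairs. Gadd45a made up 5 of the 6 rises in females and 4 of the 6 in males. The female minus male response passed for 0 of 73 pairs (0.0241% of all pairs) by edgeR, and for 0 by DESeq2, both after adjustment. By edgeR 12 pairs had an unadjusted p under 0.05, a threshold for which the share of all pairs is not given here.

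In the EDL, Gadd45a had 9.72, 13.1 and 18.3 CPM in Deficient mice at ZT17 and 13.6, 16.2 and 21.8 CPM at ZT05, against 7.86, 9.35 and 11.4 CPM at ZT17 and 7.09, 8.69 and 9.57 CPM at ZT05 in Control mice. At ZT05 the treatments did not overlap (2.09% of genes stood apart in this direction). The response was 0.91 ± 0.11 in females (edgeR, adjusted p = 5.9e-06) and 0.56 ± 0.11 in males (edgeR, adjusted p = 0.00331). In the TA it had 9.76, 12.5 and 16.5 CPM in Deficient mice at ZT17 and 11.8, 14.5 and 19.9 CPM at ZT05, against 6.50, 7.57 and 10.2 CPM at ZT17 and 6.69, 8.44 and 10.1 CPM at ZT05 in Control mice. Here too the ZT05 libraries of the treatments stood apart (2.25% of genes), and the response was 0.72 ± 0.12 in females (edgeR, adjusted p = 0.000107) and 0.89 ± 0.12 in males (edgeR, adjusted p = 0.000131). Without the 1 TA library rich in mitochondrial counts the female value was 0.68 ± 0.12 (edgeR, adjusted p = 0.000511). In both muscles the tendon cell markers were lower in Deficient mice, with a summed median of 57.5 CPM against 122 CPM in the Control TA, and their part in the Gadd45a response was not tested.

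In the soleus Gadd45a differed by treatment, and in Control mice by time. Deficient mice had 4.37, 8.08 and 13.1 CPM at ZT17 and 4.59, 13.2 and 18.6 CPM at ZT05. Control mice had 1.67, 3.0 and 3.99 CPM at ZT17, against 7.0, 8.46 and 12.9 CPM at ZT05. At ZT17 every Deficient library lay above every Control library (1.51% of genes), and in Control mice every ZT17 library lay below every ZT05 library (2.58% of genes). The Control time difference was -1.67 ± 0.29 (edgeR, adjusted p = 0.000338), near-equal in females (-1.66) and males (-1.69), and the Deficient one was -0.48 (edgeR, adjusted p = 0.353). The response was 1.52 ± 0.29 at ZT17 (edgeR, adjusted p = 0.00166) and 0.32 at ZT05 (edgeR, adjusted p = 0.398), and the difference between the times of 1.19 did not pass (edgeR, adjusted p = 0.0926). Averaged over the times the female response of 0.89 ± 0.27 (edgeR, adjusted p = 0.0218) became 0.79 ± 0.28 (edgeR, adjusted p = 0.0503) without the fast-fibre library, which held the highest Gadd45a of any soleus, 18.6 CPM. The male response was 0.95 ± 0.28 (edgeR, adjusted p = 0.0355) and was lost without any of 8 libraries. As in the EDL and TA, the tendon cell markers were lower in the Deficient soleus, with a summed median of 574 CPM against 1190.2 CPM in the Control soleus, and 7 of 10 were called lower in females and 5 in males; their part was not tested.

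**Figure D5:**
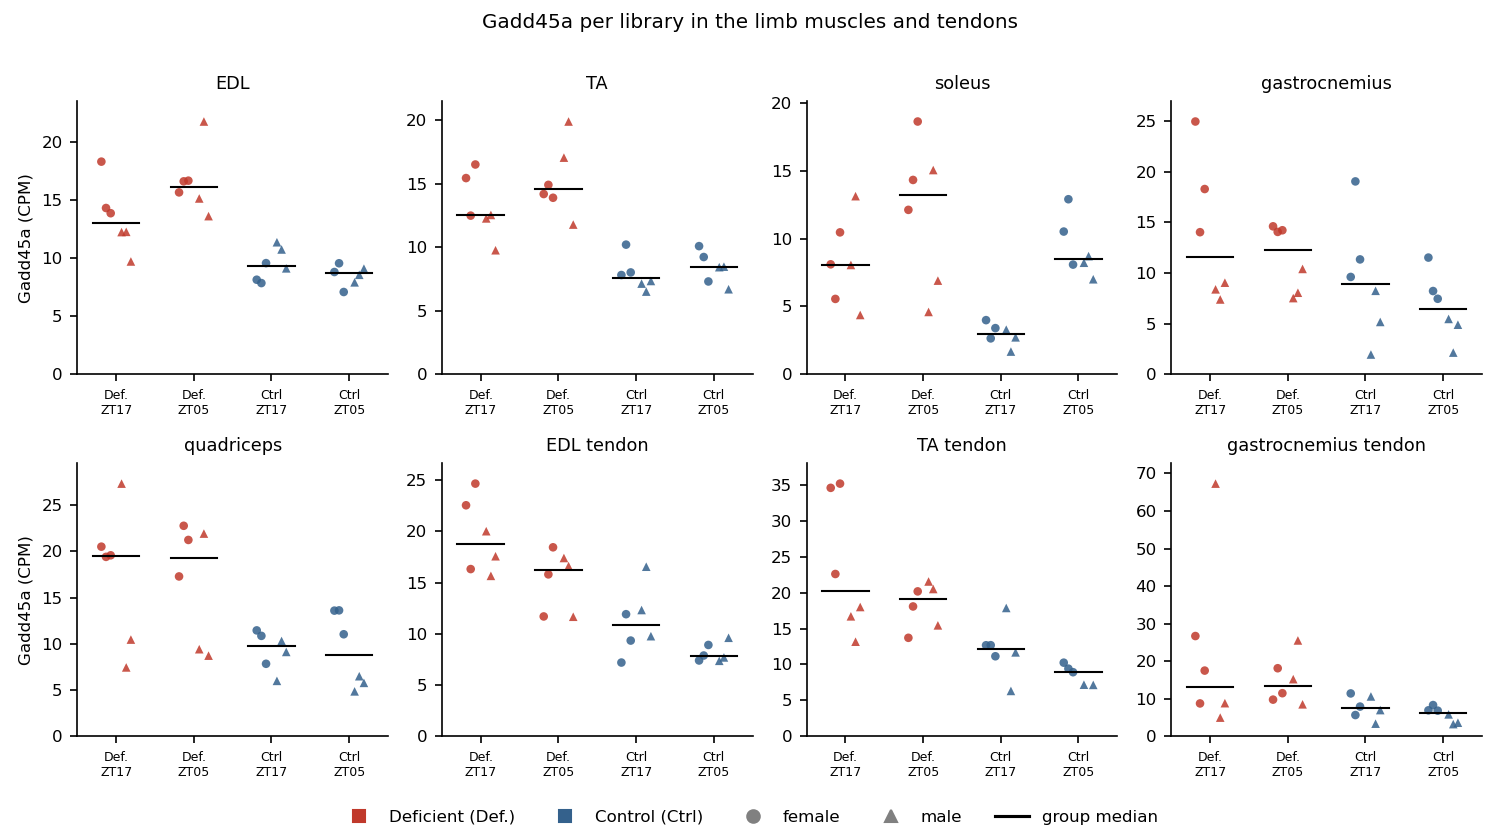
CPM of Gadd45a in every library of the 8 limb tissues, with Deficient ZT17, Deficient ZT05, Control ZT17 and Control ZT05 from left to right, circles for females, triangles for males and a line at the median of each group. In the soleus the Deficient ZT17 libraries lie between 4.37 and 13.1 CPM and the Control ZT17 libraries between 1.67 and 3.99 CPM.

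Gastrocnemius and quadriceps fell short of the test in the fit of both sexes. In the quadriceps Gadd45a had medians of 19.5 and 19.3 CPM in Deficient mice at ZT17 and ZT05, against 9.71 and 8.76 CPM in Control mice, and responses of 0.83 in females (edgeR, adjusted p = 0.147) and 1.03 in males (edgeR, adjusted p = 0.0552). Without the libraries rich in mitochondrial counts the female response was 0.81 ± 0.11 (edgeR, adjusted p = 0.000522), and a term for the number range of the mice gave 0.83 in females (edgeR, adjusted p = 0.0488) and 1.01 in males (edgeR, adjusted p = 0.0355). In the gastrocnemius the medians were 11.5 and 12.2 CPM in Deficient mice and 8.92 and 6.45 CPM in Control mice, with responses of 0.59 in females (edgeR, adjusted p = 0.331) and 0.81 in males (edgeR, adjusted p = 0.204), and of 0.57 ± 0.18 in females fitted alone (edgeR, adjusted p = 0.0604).

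In the tendons Gadd45a passed the test of the response in females in the EDL and TA tendons and in males in the gastrocnemius tendon. The EDL tendon had 15.7, 18.8 and 24.7 CPM in Deficient mice at ZT17 and 11.7, 16.2 and 18.4 CPM at ZT05, against 7.20, 10.8 and 16.5 CPM at ZT17 and 7.37, 7.79 and 9.61 CPM at ZT05 in Control mice, and the response was 1.04 ± 0.16 in females (edgeR, adjusted p = 0.00155) and 0.68 ± 0.16 in males (edgeR, adjusted p = 0.0535). The TA tendon had medians of 20.3 and 19.1 CPM in Deficient mice at ZT17 and ZT05, against 12.2 and 8.92 CPM in Control mice, and a response of 1.10 ± 0.19 in females (edgeR, adjusted p = 0.00695) and 0.92 ± 0.21 in males (edgeR, adjusted p = 0.216). At ZT05 the treatments did not overlap in the EDL tendon (0.994% of genes), the TA tendon (1.07%) or the gastrocnemius tendon (1.23%). In the gastrocnemius tendon the female response did not pass in the fit of both sexes (0.96, edgeR, adjusted p = 0.391) and passed in females alone (0.97 ± 0.26, edgeR, adjusted p = 0.0229). The male response there was 1.94 ± 0.50 (edgeR, adjusted p = 0.0236), and 3.07 ± 0.48 without the libraries rich in mitochondrial counts (edgeR, adjusted p = 0.000376), which leaves 1 male library in each group. The call with all libraries was lost without the male Control ZT05 replicate 3, the male Deficient ZT05 replicate 2 or the male Deficient ZT17 replicate 1, which held 67.3 CPM, and with a term for the number range of the mice (1.88, adjusted p = 0.0598). Fibre markers were lower in the Deficient EDL and TA tendons, at medians of 45317 and 45948 CPM against 57591 and 57077 CPM in the Control tendons, and their part in the tendon values was not tested.

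Other genes of the same processes were read from 6 lists written from general knowledge, over the 5 limb muscles. The lists were chosen with earlier results of these data known, so their counts are descriptions and no independent test. A list of 23 denervation-response genes, which includes 6 of the 10 members, had 24 of 104 gene and muscle pairs higher and 8 lower in Deficient females, and 20 higher and 5 lower in Deficient males. Over all genes 8.83% of pairs were higher and 8.3% lower in females and 3.53% and 3.6% in males. The rises of the list include those of Gadd45a in the EDL, TA and soleus given above. Atrophy ligases and a cell cycle inhibitor, named below, account for many of the others, so the counts are no measure of denervation itself. The median log2 response of the list ran from -0.01 to 0.46 over the muscles in females and from 0.27 to 0.58 in males, against 0.00 to 0.03 and -0.01 to 0.07 for all genes. Its largest rises were those of Fbxo32, an atrophy ubiquitin ligase, and Eda2r, a receptor of the TNF family, in females and of Sln, the calcium pump inhibitor sarcolipin, in males. Eda2r passed in 3 muscles of females, with 1.80 ± 0.41 in the gastrocnemius, and Sln in 2 of males, with 3.17 ± 0.68 in the quadriceps. Fbxo32 passed in all 5 muscles of females, with 2.11 ± 0.41 in the gastrocnemius, Trim63, another atrophy ligase, in 4 (1.66 ± 0.29 in the gastrocnemius), and Cdkn1a, a cell cycle inhibitor, in all 5 muscles of males, with 2.09 ± 0.34 in the quadriceps. Fgfbp1, a growth factor carrier that stabilises the neuromuscular junction in mice, was lower in 3 muscles of females (gastrocnemius -1.74) and in 2 of males (quadriceps -2.46). Myh3, the embryonic myosin, was higher in the EDL, by 0.54 ± 0.14 in females and 0.58 ± 0.15 in males. The gastrocnemius and quadriceps values include the libraries rich in mitochondrial counts.

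The list of 17 neuromuscular junction genes had 7 of 76 pairs higher and 2 lower in Deficient females and 5 higher and 3 lower in Deficient males, against 8.83% higher and 8.3% lower of all pairs in females and 3.53% and 3.6% in males. Ache, the acetylcholinesterase of the synapse, was lower in the EDL and TA of both sexes, for example at -0.51 ± 0.11 in the TA of females. Dok7, the adaptor that activates MuSK, was higher at ZT17 in the EDL, TA and soleus of Control mice, by 1.18 ± 0.11 in the soleus, and its response differed between the times there by -1.37 ± 0.15. The 20 genes of myoblast differentiation and fusion include Myod1, Myog and Myf6. They had 17 of 82 pairs higher and 4 lower at ZT17 in Control muscles, against 4.69% higher and 4.41% lower of all pairs in the limb muscles. Of these 17 rises, 12 were the rises of Myod1, Myog and Myf6 given above, so the list adds few of its own. All 5 called time differences of the response were those of Myod1 and Myog. Satellite cell genes (18, Pax7 and Myf5 among them) had 5 of 87 pairs higher and 8 lower in Deficient females and 3 higher and 5 lower in Deficient males, beside the same shares of all pairs. Vcam1 was lower in 3 muscles of females, and Sdc4, a syndecan of satellite cells that other cells also carry, was higher at ZT17 in all 5 Control muscles, by 1.28 ± 0.15 in the soleus.

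Of 16 Gadd45 family and p53 target genes, 24 of 80 pairs were higher and 2 lower in Deficient females and 18 higher and 3 lower in Deficient males, beside the same shares of all pairs. The list includes Gadd45a, whose rises in the EDL, TA and soleus are given above. Gadd45a, Eda2r and Cdkn1a are also in the denervation list, so the counts of these lists are not independent. Gadd45g, a paralogue of Gadd45a, was higher in the EDL of Deficient females by 1.36 ± 0.38 and in the TA of Deficient males by 1.41 ± 0.36, and Gadd45b, the third paralogue, was lower at ZT17 than at ZT05 in 4 Control muscles, at -1.88 ± 0.21 in the TA. Their responses differed between the times in opposite directions in the EDL, at -2.25 ± 0.53 for Gadd45g and 1.54 ± 0.31 for Gadd45b. Among 20 partners and inhibitors of the myogenic factors, 11 of 93 pairs were lower and 2 higher in Deficient females, against 8.3% lower and 8.83% higher of all pairs. In Deficient males 5 were lower and 1 higher, against 3.6% lower and 3.53% higher of all pairs. Twist1, Snai1 and Id2, which restrain myogenic factors or E-proteins, were lower in the TA of females, at -0.99 ± 0.28, -1.22 ± 0.38 and -0.81 ± 0.18. In the same libraries 8 of 10 tendon cell markers were lower (median log2 response -2.18), and their part in these differences was not tested. At ZT17 13 of 93 pairs were lower and 4 higher in Control mice, against 4.41% lower and 4.69% higher of all pairs in the limb muscles. The falls were led by Bhlhe41 in the gastrocnemius (-2.07 ± 0.33) and by Hdac9 in the EDL (-1.78 ± 0.20), a class II deacetylase that represses MEF2 targets. The gastrocnemius value includes the libraries rich in mitochondrial counts.

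Across the 120 muscle libraries, with each gene centred on its mean in each muscle and sex, Myod1 and Myog varied together (Pearson r = 0.71 on log2(CPM + 1)). Myog and Myf6 had r = 0.58, Myod1 and Myf6 0.54, Chrna1 and Myf6 0.65, and Myod1 and Gadd45a 0.01. The genes most like Myod1 were G0s2 (0.81), Cntfr (0.78) and P4ha2 (0.77), and those most like Myog were Myod1 (0.71), Hspa1l (0.70) and Ube2t (0.68). Gadd45a was most like Gucd1 (0.77), Mtmr14 (0.76) and Ptp4a3 (0.74), Chrna1 like Nampt, Lamp1 and Abcf2 (0.86 to 0.87), and Myf6 like Vmp1 (0.85), Rheb (0.83) and Myot (0.82). The closest genes to Pax7, Ncam1, Myf5 and Chrnd reached 0.60, 0.58, 0.43 and 0.39. These libraries share mice, treatments, times and, in the gastrocnemius and quadriceps, the mitochondrial share, so the coefficients are descriptions.

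Outside limb muscle and tendon, levels were read as CPM of the whole library, which is not scaled between tissues. The 4 myogenic factors were low in the 11 other tissues, with highest values of 1.09 CPM for Myod1 and 0.673 CPM for Myog, in pituitary and lung libraries. Myf6 reached 2.94 CPM in the testis and Myf5 2.06 CPM in the ovary. Pax7 had a median of 54.5 CPM in the pituitary, where melanotrope cells express it, against medians of at most 6.55 CPM, in the soleus, over the 8 limb tissues. Ncam1 had a median of 227 CPM in the pituitary, and Gadd45a of 79.5 CPM in the ovary and 36.9 CPM in the uterus.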

How the data were processed

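RNA was extracted with TRIzol and polyA libraries were made with the TruSeq Stranded mRNA kit from 500 ng of total RNA, per the labels' protocols. The authors deposited a table of raw counts per gene. FastQC 0.11.9, cutadapt 4.1, STAR 2.7.10a, DESeq2 1.34.0 and the GRCm38 (mm10) build are named in the submitters' processing notes, and the counting tool, its strand setting and the annotation are not given in the sources used here. Chrnd and Chrng, and Myf5 and Myf6, are neighbours that do not overlap. A second deposited table of normalized values was not used, and 0 columns of the count table belonged to no sample.

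Each limb tissue was fitted on its own with edgeR 4.0.16 (quasi-likelihood F test, R 4.3.3), with 1 coefficient for each group of sex, treatment and time, TMM scaling and genes kept by filterByExpr (minimum count 10, total 15). A response is Deficient minus Control, averaged over the times in a sex or over the sexes at a time. The SE is the log2 fold change divided by the square root of F, p-values were adjusted by Benjamini-Hochberg over all genes of a fit, and a call is an adjusted p under 0.05. CPM are counts per 1000000 counts of the TMM-scaled library, and levels per kilobase divide by the exon bases of the gene. Tissues were compared within the 12 females, and within the 12 males numbered above 70, with the mouse as a block. These fits had no term for time, so their differences are taken over both times together. Single values over few samples were not tested apart from these fits. Scripts were tested on simulated counts.

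The named genes are the 10 members, up to 4 called genes of largest change in each list, and for each member with a mean of at least 1 CPM the 3 genes of most similar pattern. Members and lists were chosen with earlier results of these data known. The alternatives were no filter, a stricter filter (5 CPM in 3 libraries), DESeq2 1.42.0 and its size factors, a replicate block, a sex alone, a term for the number range of the mice, leaving out libraries over 30% mitochondrial and rRNA-like counts, and each library left out. Same-numbered replicates did not deviate together: their mean correlation ran from -0.016 to 0.078 over the tissues, so the numbers were not taken to pair mice. The labels name separate mice, and 190 pairs of replicates differed by 6.65 to 1952.3 times the sampling noise (chi-square per degree of freedom), so none was a repeated library. Depth sets a floor of 3 counts per library for genes at 0, which covers counting error only. Promoters are from RefSeq, with motifs searched by letter.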

Additional observations from a re-analysis of the deposited data

Results flagged for a closer look

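In 120 groups of 6 libraries of a gene, tissue, treatment and time, 6 held a library far from the other 5, and chance flags about 1 in 20 groups. Myod1 reached 16.7 CPM in the soleus of a Deficient male at ZT05 (replicate 1), where the other 5 lay between 4.05 and 8.34 CPM. Myf6 reached 117 CPM in the same library, against 49.4 to 66.6 CPM in the others. Gadd45a reached 21.8 CPM in the EDL of a Deficient male at ZT05 (replicate 2), against 13.6 to 16.7 CPM. In the gastrocnemius tendon of a Deficient male at ZT17 (replicate 1) Gadd45a reached 67.3 CPM, against 4.98 to 26.7 CPM, and Myod1 41.9 CPM, against 6.69 to 19.1 CPM. Chrna1 was lowest, at 2.13 CPM, in the quadriceps of a Control male at ZT17 (replicate 1), in which 56.28% of the counts were mitochondrial or rRNA-like, against 11.6 to 17.2 CPM in the others.

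The response to energy deficiency differed between ZT17 and ZT05, by a test of the difference itself (edgeR), for Myod1 in the EDL (-1.86), TA (-2.34) and gastrocnemius (-1.85) and for Myog in the EDL (-1.58) and TA (-1.14), as log2 values.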

How the results depend on the processing

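The called values of single genes compared here, 39 in all, are those of the response by sex and of the time comparisons over both sexes. Responses at a single time, time differences within a sex and differences between tissues are not among them. Of the 39, 31 kept their call without any 1 library and 8 lost it without some, among them Gadd45a in the soleus (without any of 4 libraries in females and 8 in males), Pax7 over time in the Control soleus (9), Myog over time in the TA (16) and Myod1 in the gastrocnemius (19). With DESeq2, and with its size factors in edgeR, all 39 kept their direction and call, and with the replicate block, which pairs same-numbered mice, 38 of 39 did. The block gave 4 in place of 5 rises in male muscles and 5 time differences of the response, as without it. Fitted in females alone, 25 of 33 called values kept their direction and call, 7 lost the call and 1 changed sign, and in males alone 9 of 30 kept them, 19 lost the call and 2 changed sign. In Deficient mice 3 time differences changed sign in a sex alone: Myf6 in the EDL (-0.23) and TA (-0.01) of males and Myog in the EDL of females (0.12). Counts of called pairs moved more. Without the filter on low counts the rises in females were 7 in muscles (4 with it), the falls 4 in muscles (2) and 0 in tendons (1), the rises in males 10 in muscles (5) and 2 in tendons (1), the sex differences 5 (0), the Deficient time differences 9 (4), the time differences of the response 15 (5) and the treatment effects on the soleus contrast 1 (0). The stricter filter gave 1 fall in female muscles and 2 rises in male tendons. DESeq2 gave 8 and 3 rises in male muscles and tendons and 10 time differences of the response. Females alone gave 7 and 4 rises in muscles and tendons and 3 time differences of the response. Males alone gave 3 rises in muscles, 3 Control and 1 Deficient time differences and 3 time differences of the response. Without libraries over 30% mitochondrial and rRNA-like counts there were 4 rises and 2 falls in female tendons, 3 rises in male tendons, 4 sex differences, 7 Deficient time differences and 3 time differences of the response. A term for the number range of the mice gave 9 rises in male muscles and 0 in male tendons. The cause of these moves was not tested. Shares of all genes called under each of these settings are not given here, so the moves cannot be read as particular to the members. With 1 library left out, female muscles had 3 to 5 rises and 2 to 3 falls, female tendons 2 rises and 0 to 1 falls (0 without any of 16 TA tendon libraries), male muscles 3 to 8 rises (3 without any of 5 soleus libraries and 8 without the male Deficient ZT17 replicate 3 of the quadriceps) and male tendons 0 to 2. There were 0 to 1 sex differences (1 without the female Deficient ZT17 replicate 2 of the TA), 14 to 18 Control and 4 to 6 Deficient time differences, 4 to 6 time differences of the response, 9 soleus differences, Chrng among them, 0 to 1 treatment effects on them and 13 to 14 tendon differences. Chrng passed the filter on low counts through its soleus reads alone, so its soleus difference is not taken as a result. Depth limits Chrng, which had too few reads for a test outside the soleus.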
